A study of Rattus norvegicus with 20 samples.

Results

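Sugars, amino acids and small carboxylates such as lactate cross the plasma membrane of an epithelial cell through carrier proteins, most of which belong to a few families of solute carriers. The genes described here are the rat solute carriers of families Slc1, Slc2, Slc5, Slc6, Slc7, Slc16 and Slc38, measured in epithelial cells of 5 tissues before and after those cells had been transplanted into skin. Members were taken by gene symbol alone. A probe set (the probes that together measure one transcript) entered when the array annotation gave it a single symbol of these families. In all 78 genes met this rule, out of 14506 named genes on an array of 29215 probe sets. They comprised 7 Slc1, 10 Slc2, 12 Slc5, 16 Slc6, 15 Slc7, 10 Slc16 and 8 Slc38 genes. One of the 78, Slc7a6os, matched only by its spelling, since it is the neighbour of Slc7a6 on the opposite strand and not a transporter, which left 77 transporters. One further match shared its probe set with a gene outside these families (Slc16a5 with Armc7) and was left out.

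The cells came from EGFP-transgenic Sprague-Dawley rats (labelled green rat CZ-004) at postnatal day 200, and originated in 5 tissues, namely trachea, esophagus, oral mucosa, vagina and footpad. All were cultured on a feeder layer of irradiated mouse fibroblasts, which is the state called before transplantation. Cells called after transplantation had been placed in newborn mouse skin, grafted to nude mice, recovered from the grafts and cultured again. At both stages EGFP-positive cells were sorted before RNA was hybridised to 20 one-colour arrays, 2 per tissue and stage. The sort selected against mouse cells, but the purity reached was not given. It would keep rat cells of any type, because the transgene is driven by a promoter active in most cells. The duplicates were parallel cultures, so the p-values below measure the spread between cultures and not that between animals or grafts. Sample titles also carried Roman numerals that differed between stages in every tissue except vagina and that the labels do not explain, and their part in the results was not tested.

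Carriers of the Slc2 family let glucose, fructose and related sugars move down their gradient, whereas those of Slc5 couple uptake to sodium. The Slc16 family contains the proton-linked carriers of lactate and pyruvate, which export lactate from cells that rely on glycolysis. Slc1, Slc38 and part of Slc6 bring in amino acids with sodium. Many but not all Slc7 proteins exchange amino acids across the membrane, several of them only when joined to the heavy chain Slc3a2. In stratified epithelia Slc2a1 is the main glucose carrier of the dividing basal layer.

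Values are given on the log2 scale, so that a difference of 1 is a doubling of the normalised probe signal. Over the whole array they ranged from 1.52 to 14.01, and array medians lay between 5.31 and 5.55. Duplicate arrays correlated with r between 0.991 and 0.996 over the whole array (a description, because genes of one array are not replicates). The 40th percentile of all values, 4.76, served as a guide to dim probe sets. By their mean over all arrays, 27 members lay under it and 51 at or over it, and 17 members were under it on every array. Probe sets differ in brightness for the same amount of RNA, so levels of different genes were not set against each other. A gene was called changed when limma's moderated test across all probe sets, with Benjamini-Hochberg adjustment, gave an adjusted p under 0.05 and the change was more than 2-fold.

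The cells carried the marks of basal epithelium on every array. Krt14, a keratin of basal cells, measured 13.05 to 13.36, and Tp63, a transcription factor of basal cells, measured 9.0 to 10.05. The 5 measured epithelial markers were called in no tissue except for Epcam in footpad, where the gene rose by 3.00. Several moved under the fold limit. In oral mucosa Cdh1 and Epcam changed by -0.995 and -0.98 (adjusted p = 4.52e-07 and 3.26e-06, limma) and Tp63 by 0.77. Cdh1 changed by -0.73 in esophagus and 0.73 in footpad, and Itgb4 by -0.75 in footpad. Nkx2-1, a transcription factor of the airway, measured 6.56 to 6.77 in trachea and 5.54 to 6.48 elsewhere, so that the tracheal arrays were the highest. Means of the 4 endothelial markers lay between 3.84 and 4.25 on every array, those of the 5 leukocyte markers between 4.02 and 4.59 and those of the 2 melanocyte markers between 3.84 and 4.95, around or below the 40th percentile. Single markers of these lists were brighter and moved. Cd68, a macrophage marker, measured 7.97 and 7.80 in oral mucosa before and fell by 1.96 there and by 1.07 in vagina, and Mitf, a regulator of melanocytes, measured 5.01 and 4.87 in footpad before and 6.66 and 6.96 after (change 1.87). The 10 fibroblast markers moved with transplantation. In footpad 8 of 10 fell and the array means went from 7.57 to 7.63 before to 5.84 to 5.88 after, in vagina 7 fell (7.32 to 7.49 before, 5.57 to 5.58 after) and in trachea 6 fell (7.30 to 7.42 before, 5.88 to 5.97 after). In esophagus none of the 10 was called (5.55 to 5.73 before, 5.62 to 5.67 after), and in oral mucosa only Vim was called, which rose by 5.10 (5.74 to 5.82 before, 6.40 to 6.42 after). The part of these shifts in the transporter results was not tested, and in bulk RNA fewer cells of a type cannot be told apart from less RNA per cell.

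Most of the changes in transporter genes were found in footpad and oral mucosa, and in each of these tissues some members rose and others fell. In footpad 5 of the 78 members rose and 10 fell, against 4.28% higher and 2.64% lower among all probe sets. In oral mucosa 4 rose and 6 fell, where the background was 1.5% higher and 2.15% lower. In vagina 3 fell and none rose (background 1.68% lower, 0.534% higher), and in esophagus likewise 3 fell and none rose (background 0.558% lower, 0.517% higher). In trachea 1 rose and 1 fell (background 0.496% higher, 0.883% lower). The share of members called was thus 19.2% in footpad, 12.8% in oral mucosa, 3.85% in vagina, 3.85% in esophagus and 2.56% in trachea. Unnamed probe sets lower the background, and among the 14506 named genes the shares called were 9.27%, 4.98%, 3.03%, 1.34% and 1.6% in the same order. The median change of the 78 members was -0.19 in footpad, 0.14 in oral mucosa, 0.11 in vagina, 0.04 in esophagus and 0.05 in trachea, where the median of all probe sets was -0.03, 0.05, 0.06, -0.01 and 0.01.

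**Figure D1:**
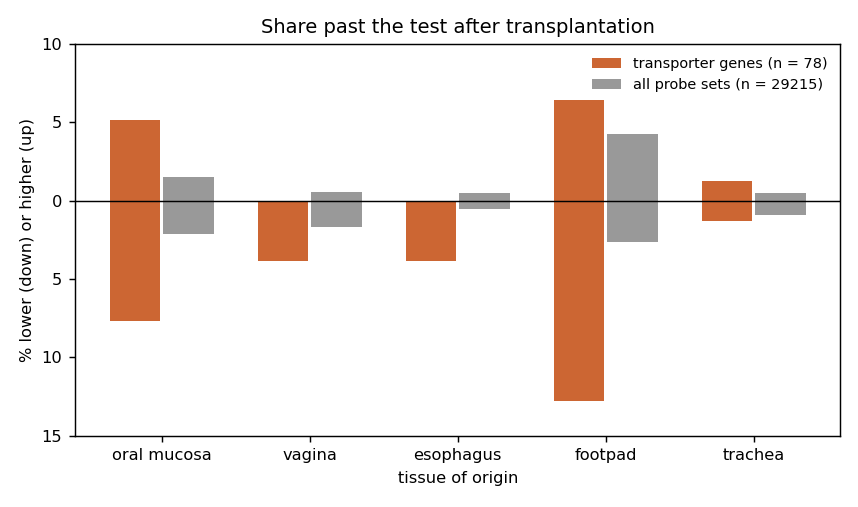
Percentage of the 78 transporter genes and of all 29215 probe sets that passed the test after transplantation, drawn upward for higher and downward for lower, by tissue of origin. Footpad has the longest bars for the transporter genes, with 6.41% higher and 12.8% lower.

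Most of the genes concerned were called in a single tissue, which does not mean that they were unchanged elsewhere. Slc38a1, called in oral mucosa, was past the adjusted p in all 5 tissues. Slc16a13, called in footpad, changed by -0.97 in vagina (adjusted p = 2.66e-06, limma) under the fold limit. In all 33 changes were called, 10 upward and 23 downward, in 23 of the 78 members, 22 of which had a mean at or over the 40th percentile (the exception was Slc1a3). Of these 23 genes, 16 were called in 1 tissue, 5 in 2 tissues, 1 in 3 and 1 in 4. Genes called in both directions numbered 5, namely Slc2a12, Slc6a14, Slc6a6, Slc16a14 and Slc7a8. Another 5 were called only higher and 13 only lower. An F test of whether the 5 tissues differed in their response called 28 of 78 members (35.9%), where the background was 18.5%. Set against the mean change of the other 4 tissues, the change of a single tissue was called for 15 members in footpad (background 8.23%), 13 in oral mucosa (4.66%), 6 in esophagus (1.35%), 5 in trachea (2.43%) and 4 in vagina (1.66%), where leaving out 1 vagina array gave 2 to 3. Unnamed probe sets lower these backgrounds as well, and shares among named genes were not computed for them. No member had a mean change over the 5 tissues at an adjusted p under 0.05 in limma's fit with tissue as a block (background 0%). No probe set of the array passed either, so this test could not show that shared changes were absent. Slc38a7 changed by -0.67 to -0.47 in the 5 tissues, under the fold limit and past the adjusted p in each (0.000231 to 0.0103, limma). Its response did not differ between tissues past the test (adjusted p = 0.761, limma F test).

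**Figure D2:**
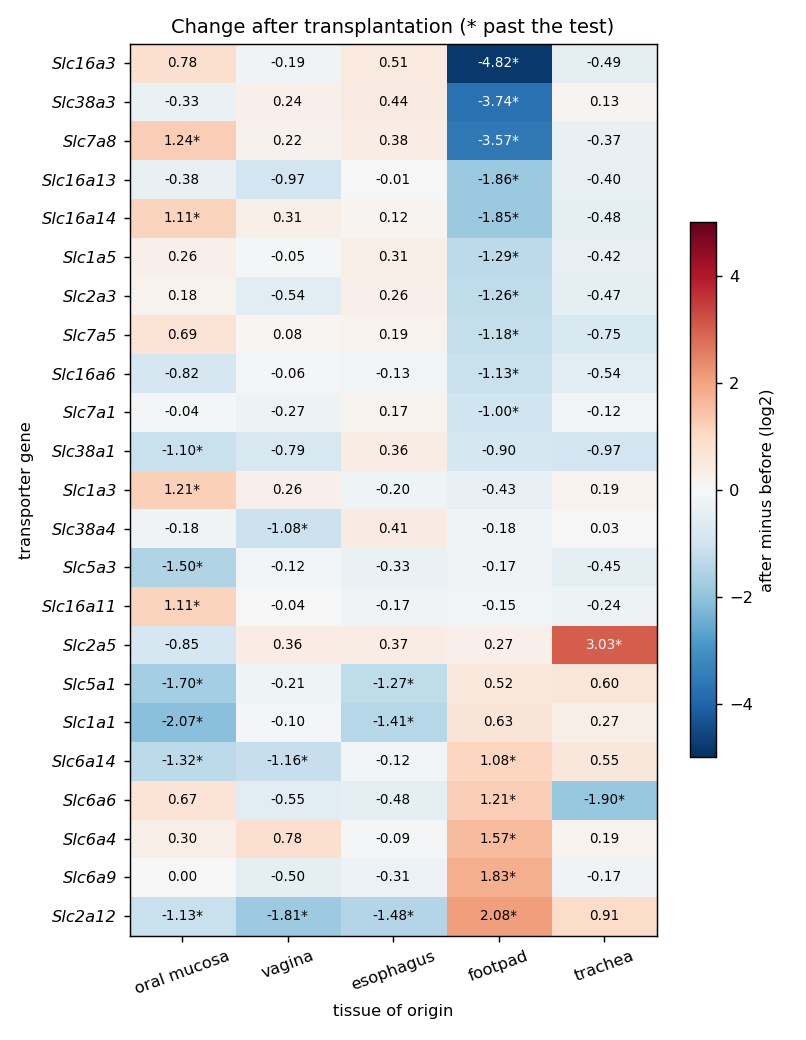
Log2 change after minus before transplantation for the 23 transporter genes called in at least 1 tissue, with tissue of origin in columns and genes in rows. Colour and number give the change and an asterisk marks a change past the test. The strongest falls stand in the footpad column, from -4.82 for Slc16a3 to -3.57 for Slc7a8.

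Among the sugar carriers, Slc2a5, the fructose transporter, rose in trachea, where it had been far lower than in the other tissues. The tracheal arrays measured 5.95 and 5.44 before and 8.73 and 8.73 after, a change of 3.03 ± 0.13 (SE, 2 arrays per group) or 8.18-fold (adjusted p = 1.28e-08, limma). Before transplantation the arrays of the other tissues lay between 8.61 and 9.33, without overlap with trachea, and after it between 8.20 and 9.62, on both sides of the tracheal values. The span of tissue means was 3.60 before (adjusted p = 6.02e-10, limma F test) and 1.26 after (adjusted p = 3.02e-05). In oral mucosa the values went the other way, from 9.20 and 9.14 to 8.20 and 8.44, a change of -0.85 ± 0.13 that passed the adjusted p (0.000351) and not the fold limit. Changes in vagina, esophagus and footpad were 0.36, 0.37 and 0.27 with adjusted p of 0.0788, 0.0962 and 0.152 (limma). The tracheal change exceeded the mean change of the other 4 tissues by 3.00 (adjusted p = 5.12e-08, limma).

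Slc2a12, a glucose carrier related to the insulin-responsive one of muscle and fat, was called in 4 tissues and in both directions. In vagina it measured 6.93 and 6.84 before and 4.98 and 5.17 after, a 3.51-fold fall. In esophagus it went from 7.20 and 6.91 to 5.43 and 5.73, a 2.79-fold fall. In oral mucosa it went from 7.03 and 6.72 to 5.79 and 5.70, a 2.19-fold fall. Footpad showed the reverse, since its arrays measured 4.98 and 4.97 before and 6.90 and 7.20 after, a 4.23-fold rise (change 2.08, adjusted p = 6.59e-08, limma). In trachea the values were 5.88 and 5.82 before and 6.82 and 6.71 after, a change of 0.91 (adjusted p = 0.00066, limma) just short of the fold limit. The order of the tissues was therefore turned round, with footpad lowest before and highest on average after, beside trachea. The difference between the responses was 2.96 for footpad against the mean of the other 4 tissues (adjusted p = 7.36e-09, limma). The oral mucosa call was lost without its first array before transplantation, where the change was -0.97.

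In the Slc5 family 2 of 12 genes fell in oral mucosa (background 2.15% lower) and 1 in esophagus (0.558%), and none rose. Slc5a1, which takes up glucose and galactose in the intestine and kidney, measured 8.34 and 8.09 in oral mucosa before and 6.51 and 6.53 after, a 3.25-fold fall (adjusted p = 3.39e-06, limma). In esophagus it went from 7.72 and 7.34 to 6.16 and 6.37, a 2.4-fold fall (adjusted p = 0.000178, limma). In the remaining tissues the change was -0.21 in vagina, 0.52 in footpad (adjusted p = 0.025, limma) and 0.60 in trachea (adjusted p = 0.0224), none past the fold limit. The tissue means spanned 2.54 before (adjusted p = 9.75e-08, limma F test) and 0.41 after, where the tissues did not differ past the test (adjusted p = 0.197). Slc5a3, which carries myo-inositol, was called in oral mucosa alone, from 7.57 and 7.44 to 5.96 and 6.06, a 2.82-fold fall (adjusted p = 2.21e-05, limma). The other 10 members of Slc5 had no call in any tissue.

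**Figure D3:**
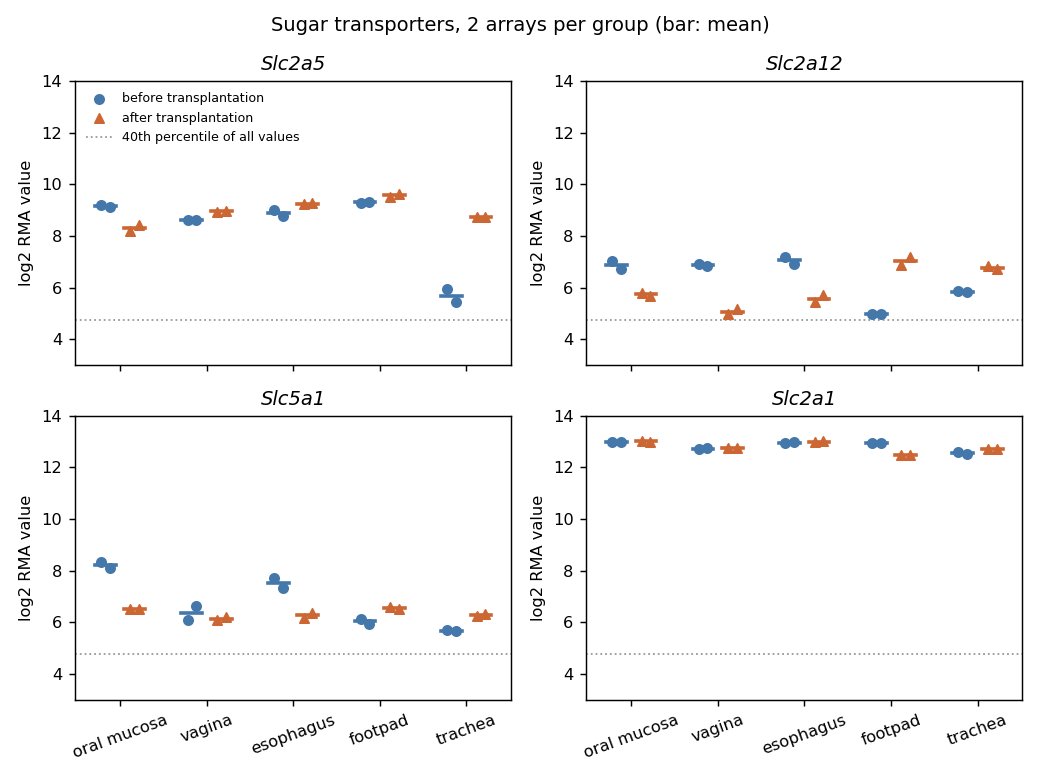
Log2 value on each array for the sugar carriers Slc2a5, Slc2a12, Slc5a1 and Slc2a1 by tissue of origin, with circles before and triangles after transplantation, bars at the mean of 2 arrays and a dotted line at 4.76. Slc2a5 before transplantation is low in trachea alone, and Slc2a12 moves up in footpad and trachea and down in oral mucosa, vagina and esophagus.

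Slc2a1, the main glucose carrier of keratinocytes, stayed within a narrow band. Its 20 values lay between 12.46 and 13.02. The change was 0.03 in oral mucosa (95% interval -0.12 to 0.17), 0.04 in vagina (-0.11 to 0.18), 0.03 in esophagus (-0.12 to 0.17) and 0.13 in trachea (-0.02 to 0.27). In footpad it went from 12.93 and 12.95 to 12.49 and 12.46, a change of -0.47 (95% interval -0.61 to -0.32, adjusted p = 8.16e-05, limma) that lay under the fold limit. Slc2a3, the high-affinity glucose carrier known from neurons, was called in footpad, from 5.59 and 5.27 to 4.18 and 4.15, a change of -1.26 ± 0.15 that ended under the 40th percentile.

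Slc16a3, the carrier through which glycolytic cells release lactate, lost most of its signal in footpad and in no other tissue. Before transplantation all 10 arrays lay between 9.70 and 10.49, and the tissues did not differ past the test (adjusted p = 0.0907, limma F test). After it the 2 footpad arrays measured 6.01 and 5.33, while the 8 arrays of the other tissues lay between 9.90 and 10.86. The footpad change was -4.82 ± 0.17 (SE, 2 arrays per group), a 28.2-fold fall (adjusted p = 1.75e-10, limma), and it differed from the mean change of the other 4 tissues by -4.97 (adjusted p = 2.96e-10). In oral mucosa the gene went from 10.13 and 9.70 to 10.76 and 10.64, a change of 0.78 (adjusted p = 0.00442, limma) that did not reach the fold limit. The change was 0.51 in esophagus, -0.19 in vagina and -0.49 in trachea, with adjusted p of 0.0691, 0.488 and 0.0746 (limma). In footpad 8 of 10 fibroblast markers fell alongside, and their part in this change was not tested.

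Slc16a1, the widely expressed carrier of lactate and pyruvate, was called in no tissue. In footpad it measured 10.38 and 10.54 before and 9.96 and 9.92 after, a change of -0.52 (adjusted p = 0.000166, limma). In oral mucosa it went from 9.74 and 9.70 to 10.72 and 10.66, and the change of 0.97 ± 0.08 (adjusted p = 9.04e-07, limma) lay just under the fold limit. The changes in vagina, esophagus and trachea were 0.17, 0.36 and -0.01. Both carriers need the membrane protein basigin (Bsg) to reach the surface, and Bsg changed by -0.12 to 0.03 in the 5 tissues without a call. Embigin (Emb), a related chaperone, rose in esophagus by 1.73 and in footpad by 1.55, and changed by 0.64 in oral mucosa, -0.68 in vagina and -0.75 in trachea.

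Including Slc16a3, 4 of 10 Slc16 genes fell in footpad, none rose and 6 were not called, where 2.64% of all probe sets and 4.02% of named genes were called lower. Slc16a13 measured 8.97 and 8.90 before and 7.13 and 7.03 after (change -1.86 ± 0.09, adjusted p = 1.39e-09, limma), and in vagina its change of -0.97 lay just under the fold limit. Slc16a14 measured 7.80 and 7.81 before and 5.95 and 5.96 after in footpad, a 3.61-fold fall. In oral mucosa Slc16a14 moved the other way, from 6.08 and 6.21 to 7.19 and 7.32, a 2.16-fold rise (adjusted p = 6.1e-07, limma). Footpad was therefore the highest tissue before transplantation and oral mucosa after it. Slc16a6 changed by -1.13 in footpad. Slc16a11 rose in oral mucosa by 1.11, from 6.25 and 6.77 to 7.61 and 7.64, a call that was lost without the first array before transplantation (change 0.85). No Slc16 gene was called in vagina, esophagus or trachea. The members whose 10 group means were most like those of Slc16a3 were Slc1a5 (Pearson's r = 0.88), Slc16a13 (0.87) and Slc38a3 (0.82). Over the 9 groups without footpad after transplantation the coefficients were 0.78, 0.13 and 0.43, so the likeness of Slc16a13 and Slc38a3 rested largely on that group. For Slc2a5 the most alike were Slc5a8 (0.61), Slc1a7 (0.59) and Slc7a13 (0.58). Over the 9 groups without trachea before transplantation their coefficients were 0.68, 0.28 and 0.44. The means of Slc5a8, Slc1a7 and Slc7a13 over all arrays were 4.344, 4.285 and 2.959. All lay under 4.76, the guide to dim probe sets, so their likeness to Slc2a5 could be judged only roughly.

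**Figure D4:**
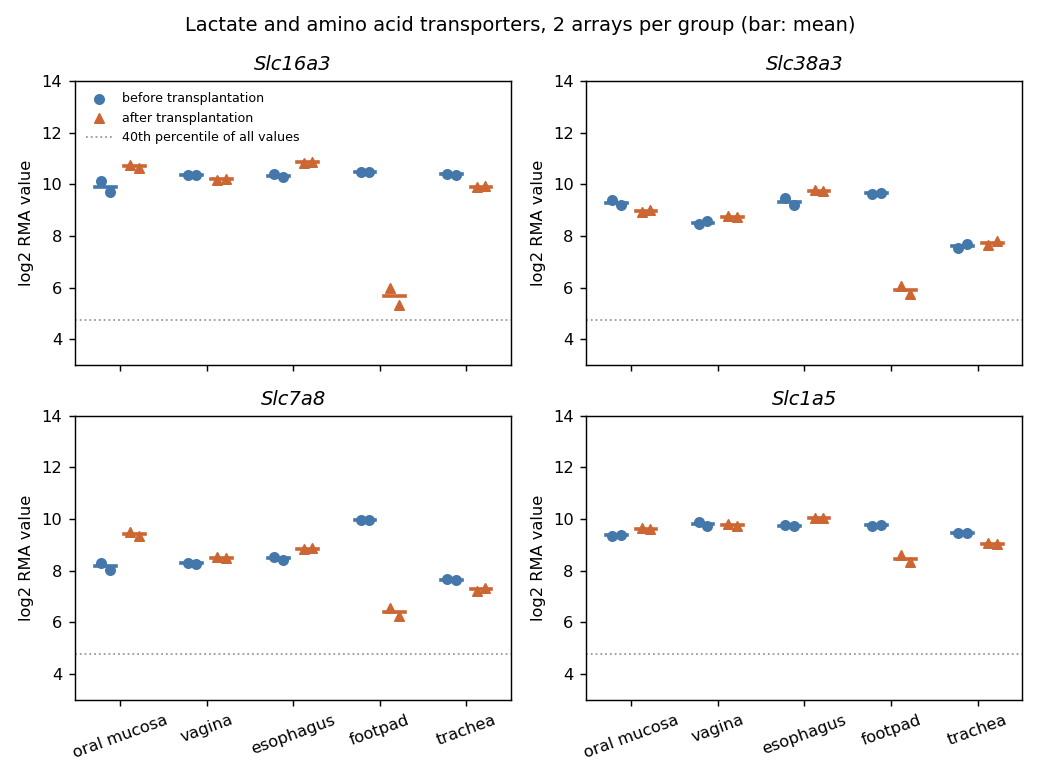
Log2 value on each array for the lactate carrier Slc16a3 and the amino acid carriers Slc38a3, Slc7a8 and Slc1a5 by tissue of origin, with circles before and triangles after transplantation, bars at the mean of 2 arrays and a dotted line at 4.76. The footpad triangles lie lowest in each panel, and those of Slc16a3, at 6.01 and 5.33, lie apart from all other points.

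In footpad 1 of 8 Slc38 genes and 3 of 15 Slc7 genes fell and none of either family rose (background 2.64% lower). Slc38a3, which moves glutamine with sodium in liver, kidney and brain, measured 9.62 and 9.69 before and 6.05 and 5.77 after, a 13.4-fold fall (change -3.74 ± 0.12, adjusted p = 6.62e-11, limma). In the other tissues it changed by no more than 0.44 in either direction and was not called, and the difference of footpad from their mean change was -3.86 (adjusted p = 1.15e-10, limma). Slc7a8, the light chain of an exchanger of neutral amino acids, measured 9.94 and 9.98 in footpad before, above all other arrays of that stage, and 6.55 and 6.24 after, below all others. This was an 11.9-fold fall (adjusted p = 6.77e-11, limma). In oral mucosa Slc7a8 rose 2.37-fold, from 8.30 and 8.02 to 9.49 and 9.32 (adjusted p = 2.05e-06, limma). The change was 0.22 in vagina, 0.38 in esophagus and -0.37 in trachea.

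Falls of 2-fold to 3-fold in footpad included those of Slc1a5, Slc7a5 and Slc7a1. Slc1a5, a glutamine carrier, went from 9.73 and 9.78 to 8.59 and 8.34 (change -1.29 ± 0.09, adjusted p = 8.08e-08, limma). Slc7a5, the large neutral amino acid exchanger, went from 10.51 and 10.56 to 9.50 and 9.21 (change -1.18 ± 0.10, adjusted p = 4.68e-07, limma). Slc7a1, a carrier of arginine and lysine, went from 9.94 and 9.95 to 8.99 and 8.90, and its change of -1.004 ± 0.08 sat at the fold limit and was lost without either second footpad array (-0.999 and -0.96). Outside footpad Slc1a5 and Slc7a1 had no call, and Slc7a5 changed by 0.69 in oral mucosa (adjusted p = 0.000157, limma) and by -0.75 in trachea (adjusted p = 0.000195) without reaching the fold limit. The heavy chain Slc3a2, which Slc7a5 and Slc7a8 need, changed by -0.10 to 0.12 over the 5 tissues and was not called. Slc38a2 and Slc1a4, neutral amino acid carriers known to respond to amino acid supply, were called in no tissue. Their changes ran from -0.24 to 0.25 and from -0.29 to 0.17. Slc7a11, which imports cystine, was not called either, and its largest change was 0.81 in oral mucosa (95% interval 0.36 to 1.26).

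Promoter sequences are shown for the 4 genes lower in footpad that the RefSeq promoter table (build GRCr8) held, Slc16a3, Slc7a5, Slc7a1 and Slc7a8, and for Slc2a5, so that the letters near their starts can be compared. Each window runs from 250 bases before to 50 bases after the annotated start. The windows lie at chr10:106712078-106712377 (plus strand) for Slc16a3, chr19:66872363-66872662 (minus strand) for Slc7a5, chr12:11664238-11664537 (plus strand) for Slc7a1, chr15:32212666-32212965 (minus strand) for Slc7a8 and chr5:165865929-165866228 (plus strand) for Slc2a5. Capitals mark matches on either strand to TGATGNAA, the core of the element bound by the amino acid response factor, or to ACGTG, the core of the hypoxia response element, which the E-box CACGTG contains.
Slc16a3: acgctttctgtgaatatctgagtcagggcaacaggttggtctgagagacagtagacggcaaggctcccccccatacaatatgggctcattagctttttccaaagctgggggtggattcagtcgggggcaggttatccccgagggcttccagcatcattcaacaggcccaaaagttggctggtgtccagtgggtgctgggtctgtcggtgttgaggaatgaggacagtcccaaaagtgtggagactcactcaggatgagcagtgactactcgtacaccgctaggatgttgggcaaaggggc
Slc7a5: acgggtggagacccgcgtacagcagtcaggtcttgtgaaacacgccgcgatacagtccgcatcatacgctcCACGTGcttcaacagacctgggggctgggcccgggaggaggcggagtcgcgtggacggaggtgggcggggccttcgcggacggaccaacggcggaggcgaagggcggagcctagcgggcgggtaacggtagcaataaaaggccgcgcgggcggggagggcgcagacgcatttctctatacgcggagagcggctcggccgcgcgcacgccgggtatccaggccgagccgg
Slc7a1: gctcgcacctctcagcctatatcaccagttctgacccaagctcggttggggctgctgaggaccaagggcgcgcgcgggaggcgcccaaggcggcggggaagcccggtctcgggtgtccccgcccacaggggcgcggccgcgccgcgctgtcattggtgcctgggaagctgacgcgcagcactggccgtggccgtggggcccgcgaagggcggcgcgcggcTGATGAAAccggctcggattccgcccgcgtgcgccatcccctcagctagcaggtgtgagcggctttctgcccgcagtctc
Slc7a8: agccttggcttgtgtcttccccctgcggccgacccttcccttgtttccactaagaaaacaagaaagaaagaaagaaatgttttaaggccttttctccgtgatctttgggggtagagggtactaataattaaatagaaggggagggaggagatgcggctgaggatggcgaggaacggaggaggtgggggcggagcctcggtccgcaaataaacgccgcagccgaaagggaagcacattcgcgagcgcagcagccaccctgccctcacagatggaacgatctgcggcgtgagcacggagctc
Slc2a5: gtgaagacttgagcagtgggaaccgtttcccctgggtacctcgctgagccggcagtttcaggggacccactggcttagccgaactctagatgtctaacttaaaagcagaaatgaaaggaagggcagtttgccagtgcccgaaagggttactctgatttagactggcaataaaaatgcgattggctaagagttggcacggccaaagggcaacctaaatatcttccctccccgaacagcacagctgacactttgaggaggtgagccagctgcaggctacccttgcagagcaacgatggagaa

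Of these windows, that of Slc7a5 held CACGTG, whose letters match ACGTG on both strands, and that of Slc7a1 held TGATGNAA, while those of Slc16a3, Slc7a8 and Slc2a5 held neither motif. Promoters were listed for 60 of the 78 members. TGATGNAA occurred in 3 of these 60 (5.0%) and in 3.98% of all 33469 promoter windows of the table. ACGTG occurred in 19 of 60 (31.7%) against 19.3% of all windows, and CACGTG in 8 of 60 (13.3%) against 6.42%. Of the 15 called members with a window, 2 held TGATGNAA, 3 held ACGTG and 2 held CACGTG. A match is a description of letters and not of a bound site.

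In the Slc1 family 1 of 7 genes fell and 1 rose in oral mucosa, and 5 were not called (background 2.15% lower, 1.5% higher). Slc1a1, which takes up glutamate and cysteine, measured 8.74 and 8.71 in oral mucosa before and 6.55 and 6.75 after, a 4.2-fold fall (change -2.07 ± 0.13, adjusted p = 4.77e-08, limma). It fell in esophagus as well, from 8.86 and 8.62 to 7.17 and 7.49, or 2.66-fold (adjusted p = 1.01e-05, limma). In vagina and trachea it changed by -0.10 and 0.27, and in footpad by 0.63 (adjusted p = 0.00118, limma) under the fold limit. Slc1a1 and Slc5a1 were thus both called lower in oral mucosa and esophagus and in no other tissue. Slc1a3, the glutamate carrier known from astrocytes, rose in oral mucosa from 4.94 and 4.45 to 6.05 and 5.75, starting around the 40th percentile. This call was lost without the second array before transplantation, where the change was 0.97.

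Slc38a1, a sodium-coupled glutamine carrier, separated the tissues at both stages. Before transplantation its mean was 6.71 in oral mucosa and between 8.53 and 9.75 in the other tissues. After it the mean was 5.61 in oral mucosa, 7.64 in footpad and between 8.40 and 9.52 in trachea, vagina and esophagus. The tissue means spanned 3.04 before (adjusted p = 6.42e-10, limma F test) and 3.92 after (adjusted p = 8.18e-11). Oral mucosa, lowest at both stages, also had the only call, with 6.77 and 6.64 before and 5.74 and 5.47 after (change -1.10). Changes under the fold limit were measured in vagina (-0.79), footpad (-0.90) and trachea (-0.97), and esophagus changed by 0.36. Slc38a4, another member of that system, was called in vagina alone, from 5.87 and 5.95 to 4.93 and 4.73 (change -1.08 ± 0.20, adjusted p = 0.0014, limma), and its call was lost without the second array after transplantation (-0.98).

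Products of the Slc6 family carry amino acids, taurine and monoamine transmitters with sodium and chloride. In footpad 4 of its 16 genes rose, none fell and 12 were not called, where 4.28% of all probe sets and 5.25% of named genes were called higher. The family median change there was 0.06. Slc6a9, a glycine carrier, went from 6.84 and 7.06 to 8.78 and 8.78, a 3.55-fold rise (adjusted p = 1.6e-08, limma), which differed from the mean change of the other tissues by 2.08 (adjusted p = 1.5e-08). Slc6a4, the serotonin carrier, went from 7.18 and 7.25 to 8.72 and 8.85 (change 1.57 ± 0.13, adjusted p = 5.32e-07, limma). Footpad was the highest tissue for Slc6a4 at both stages, and the tissue means spanned 2.18 before and 3.57 after. Slc6a6, the taurine carrier, rose in footpad from 8.09 and 8.25 to 9.26 and 9.51 and fell in trachea from 8.47 and 8.43 to 6.35 and 6.75. These were changes of 2.32-fold up and 3.73-fold down (adjusted p = 3.84e-06 and 4.78e-07, limma). The tracheal change differed from the mean of the other 4 tissues by -2.11 (adjusted p = 5.69e-07, limma).

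Slc6a14, a carrier with broad specificity for neutral and basic amino acids, fell in oral mucosa and vagina and rose in footpad. It measured 7.03 and 6.23 before and 5.41 and 5.20 after in oral mucosa, and 6.71 and 6.76 before and 5.71 and 5.43 after in vagina. In footpad it measured 4.26 and 4.05 before, under the 40th percentile, and 5.26 and 5.21 after. After transplantation the tissue means did not differ past the test (adjusted p = 0.173, limma F test), whereas before it they spanned 2.58 (adjusted p = 1e-05). Each of its calls was lost when some single array was left out. The change was -0.93 in oral mucosa without the first array before transplantation (adjusted p = 0.0504, limma) and 0.97 in footpad without the second array before transplantation. In vagina it was -1.14 without the second array before transplantation (adjusted p = 0.0533, limma) and -1.02 without the second array after it (adjusted p = 0.0756).

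Transporter levels differed between tissues at both stages. The limma F test called 16 of 78 members (20.5%) before, against 9.05% of all probe sets, and 20 of 78 (25.6%) after, against 11.9%. Unnamed probe sets lower this background too, and the share among named genes was not computed for it. Of the members called, 12 were called at both stages, 4 only before and 8 only after. The widest spans of tissue means before were 3.60 for Slc2a5, 3.04 for Slc38a1, 2.58 for Slc6a14, 2.54 for Slc5a1 and 2.32 for Slc16a14. After transplantation they were 5.18 for Slc16a3, 3.92 for Slc38a1, 3.85 for Slc38a3, 3.57 for Slc6a4 and 3.01 for Slc7a8. Slc38a1 was the only gene in both lists of 5. The spans of Slc16a3, Slc38a3 and Slc7a8 after transplantation had footpad at their lower end, and that of Slc6a4 had footpad at its upper end.

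Genes that act on the carried substrates were described from lists of related genes. Of 19 glycolysis and lactate genes, 4 were called higher in footpad and none lower, with a median change of -0.08, where 4.28% of all probe sets and 5.25% of named genes were called higher. These were Txnip, an inhibitor of glucose uptake (9.92 and 9.89 before, 12.43 and 12.50 after), Ldhb, a lactate dehydrogenase subunit (change 2.20), Aldoc, an aldolase (2.01), and Pfkfb3, an activator of phosphofructokinase (1.46). Under the fold limit but past the adjusted p in footpad, Pfkl (-0.78), Hk2 (-0.73), Pgam1 (-0.36), Tpi1 (-0.30), Pkm (-0.26) and Gapdh (-0.21) went down. Pfkm (0.54) and Pgk1 (0.31) went up there in the same way. Aldoc fell by 1.22 in vagina and by 1.61 in esophagus, and Ldhb fell by 1.02 in oral mucosa. Ldha, the subunit prominent in lactate production, changed by 0.11 to 0.31 in the 5 tissues and was not called. Of 8 hypoxia targets none was called in footpad, and Car9, a carbonic anhydrase, fell in vagina by 1.49 and in esophagus by 1.18. Others of that list moved past the adjusted p but under the fold limit. Adm (0.70), Vegfa (0.64) and P4ha1 (0.41) went up in footpad. Egln3 (0.94), Adm (0.93), Ndrg1 (0.68) and Car9 (0.30) went up in trachea. In the other tissues such changes went both ways. Of 3 genes of fructose formation and use, none was called in trachea. There Sord, which makes fructose from sorbitol, changed by 0.62 (adjusted p = 0.0017, limma), under the fold limit. Akr1b1, which makes sorbitol, changed there by 0.32 (adjusted p = 0.0257, limma) and the remaining gene, Khk, by 0.21 (adjusted p = 0.287). Sord rose in footpad by 1.43, and Akr1b1 fell in vagina by 1.82 and rose in esophagus by 1.27. Of 16 amino acid response genes 3 rose in footpad, against the same background and with a median change of 0.21, namely Atf3 (3.50), Ddit4 (3.03) and Ddit3 (2.38), and Ddit3 also rose in vagina (1.17). Asns and Atf4, central genes of that response, changed by 0.57 (adjusted p = 5.95e-05, limma) and 0.10 (adjusted p = 0.466) in footpad without a call. Past the adjusted p but under the fold limit there, Phgdh (0.97), Psph (0.83) and Psat1 (0.51) went up. Shmt2 (-0.50), Aldh18a1 (-0.48) and Got1 (-0.35) went down.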

How the data were processed

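RNA (100 ng per sample) was hybridised to one-colour Affymetrix rat gene arrays. The authors deposited log2 values of RMA (background correction, quantile normalization and median polish per probe set) from Affymetrix Expression Console. Quantile normalization forces like distributions, which hides any shift common to all genes, and bright probe sets can saturate. No detection calls were used. The platform annotation named 15310 probe sets with 1 symbol and 323 with several, and 13582 were unnamed here. All 78 members were found in the RefSeq table (GRCr8).

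Differences were tested with limma 3.58.1 (R 4.3.3) in one model of 10 group means over all 29215 probe sets, with eBayes and Benjamini-Hochberg adjustment per contrast, and F tests called a gene at an adjusted p under 0.05 with a span over 1. Members and lists were chosen with earlier results of these data known. Described in full were Slc2a5, Slc16a3, the 6 largest called changes per tissue, genes called in opposite directions or in 3 tissues, the 5 widest spans per stage and common textbook transporters. Other genes named were chosen after their values were seen. The scripts were tested on simulated data. Alternatives were the replicate block, arrays left out, centering, filters and other call rules.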

Additional observations from a re-analysis of the deposited data

Results flagged for a closer look

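The 28 genes below responded differently in the 5 tissues by a test of that difference (limma F test, adjusted p under 0.05 and a gap over 1), and each value is the gap in log2 change between the tissue with the highest and the tissue with the lowest change. Groups of 2 arrays are too small for a test of single arrays that stand apart. Lactate and related carriers were Slc16a3 (5.60), Slc16a14 (2.96), Slc16a13 (1.85), Slc16a1 (1.49), Slc16a11 (1.35) and Slc16a6 (1.07). Sugar, inositol and vitamin carriers were Slc2a12 (3.89), Slc2a5 (3.89), Slc5a1 (2.30), Slc2a3 (1.52), Slc5a3 (1.38) and Slc5a6 (1.20). Carriers of the Slc7 family were Slc7a8 (4.81), Slc7a5 (1.87), Slc7a11 (1.28), Slc7a1 (1.18) and Slc7a6 (1.06). Those of the Slc38 family were Slc38a3 (4.18), Slc38a4 (1.48), Slc38a1 (1.46) and Slc38a9 (1.32). Those of the Slc1 family were Slc1a1 (2.70), Slc1a3 (1.64) and Slc1a5 (1.60). Those of the Slc6 family were Slc6a6 (3.11), Slc6a14 (2.40), Slc6a9 (2.33) and Slc6a4 (1.66).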

How the results depend on the processing

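The 33 called changes were recomputed under alternatives that gave 296 values, of which 282 kept the call, 14 lost it and 0 changed direction. Of these changes 23 kept the call everywhere and 10 lost it at least once, 9 of them with an array left out. With an adjusted p under 0.05 alone, 28 members were called in oral mucosa (12 higher), 20 in vagina (7 higher), 12 in esophagus (6 higher), 31 in footpad (12 higher) and 13 in trachea (3 higher). Among the 14506 named genes this rule called 3879, 3745, 2623, 5671 and 2737 in the same order. The share of members stood clearly above that of named genes in oral mucosa alone. With a fold over 1.5 the counts were 19 in oral mucosa, 10 in vagina, 23 in footpad and 6 in trachea. In esophagus the lower limit added no member to those called at 2-fold. The share over all probe sets was not computed for the 1.5-fold limit, so these counts were not read as a result about the members. Footpad also had the most calls over the whole array at 2-fold (6.92% of all probe sets). Centering each array on its median moved the oral mucosa median over the whole array from 0.05 to -0.09 and took Slc16a11 (0.97) and Slc16a14 (0.97) in oral mucosa and Slc7a1 (-0.98) in footpad under the fold limit.

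With 1 array left out the counts ranged from 9 to 10 in oral mucosa, 2 to 4 in vagina, 3 to 3 in esophagus, 14 to 15 in footpad and 2 to 3 in trachea, the remaining array being assumed to vary like the other groups. Counts of changes that differed from the mean of the other 4 tissues ranged from 11 to 13, 2 to 3, 5 to 6, 14 to 16 and 4 to 7 in the same order, with 2 in vagina without its second array after transplantation. Other calls lost this way were Slc38a1 in oral mucosa without the second array after transplantation (-0.96) and those given in the report. Same-numbered arrays did not deviate together (correlations of -0.15 to 0.03). With 2 arrays per group this could not show whether the numbers paired samples. A replicate block left the counts at 10, 3, 3, 15 and 2, with 16 members differing between tissues before and 20 after. The duplicates limit precision, and dim members could be judged only roughly.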

Other observations

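Several transporters differed in response between tissues without passing the fold limit in any one of them. Slc5a6, a carrier of biotin and pantothenate, changed by -0.77 in footpad and 0.43 in vagina. Slc7a6, a light chain that pairs with Slc3a2, changed by 0.61 in vagina, 0.58 in esophagus and -0.46 in footpad. Slc38a9, an amino acid sensor of the lysosome, changed by 0.83 in footpad and -0.49 in oral mucosa. Slc7a6os, the neighbour that is not a transporter, changed by -0.18 to 0.12, and its response did not differ between tissues past the test (adjusted p = 0.298, limma F test).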
